A study of Mus musculus and Mus musculus x Mus spretus with 8 samples.

Results

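The proteasome is the barrel-shaped protease that takes apart proteins marked with ubiquitin. Its core is built of rings of alpha and beta subunits, and the cutting sites sit inside, on 3 of the beta subunits. A cap of a base, with ATPases that unfold the substrate, and a lid, which removes the ubiquitin, closes the barrel, while other activators can take the place of the cap. In cells exposed to interferon, immune forms of the 3 cutting subunits replace the standard ones. The genes of these subunits, of their assembly chaperones and of the activators and the inhibitor share the symbol stem Psm, with the letters a to g and a number. All 48 symbols of that form were taken, of 24060 symbols in the table, and no measured value entered the choice. They comprise 7 alpha genes, 4 structural and 3 standard catalytic beta genes, 5 core genes restricted to certain tissues, 6 ATPases and 3 other genes of the base, 8 lid genes, 7 assembly chaperones, and 5 activators or inhibitors.

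The levels come from RNA sequencing of 8 single cells of the mouse carotid body, the organ that senses arterial oxygen. The labels call them glomus cells, its sensory cells, from wild-type pups at postnatal day 4 to 5. Of the 8 cells, 7 came from C57BL/6 mice, and cell 2 from a hybrid labelled C57BL/6 X SPRET/EiJ. The cells were kept for their expression of Th, Uchl1 and Kcnk3, and no treatment or second group is named. No animal is named for any cell, so the cells count as 1 sample. Values are given per cell, or as lowest, median and highest over the 8 cells, without tests.

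Depth ran from 3960200 reads in cell 1 to 30218206 in cell 2, and the cells detected 4040 to 6956 genes. Levels are reads of a gene per 1000000 reads of the cell (RPM), uncorrected for length, and 1 RPM or more counts as detected. The 3 genes used for selection were detected in all 8 cells, and each of the 7 glomus markers examined in 6 or more. All 6 leukocyte and all 4 erythroid markers had no read in any cell. Of the endothelial markers Pecam1, Cdh5, Kdr and Tek had no read, while Cldn5 reached 2730 RPM in cell 2 and was detected in 6 cells. The summed level of the 6 glial markers ran from 0 to 154 RPM, with no read of Gfap, S100b or Sox10, and that of the 6 fibroblast and mural markers from 0 to 352 RPM, with Pdgfrb highest, at up to 350 RPM. Cell 4 stood apart in the neuronal marker Prph, at 223 RPM against under 1 RPM in the other cells. The part of these transcripts in the results was not tested.

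Most proteasome genes were expressed in most cells. Of the 48, 33 were detected in at least 6 cells, which is 68.8%, against 14.2% of all symbols. In all 8 cells 15 were detected, or 31.2%, against 4.88% of all symbols. Another 11 were detected in 1 to 5 cells, and the remaining 4 had no read in any cell. At 1 RPM, 55.2% of all symbols were detected in no cell. At a limit of 10 RPM the count in at least 6 cells was 25, against 9.86% of all symbols. The median over the 48 genes of their median level was 47.6 RPM, and without the 5 tissue-restricted core genes it was 51.3 RPM. Other large complexes served for comparison. Of 36 complex I genes of the respiratory chain 86.1% reached that number of cells, with a median of 43.1 RPM, and of 77 mitochondrial ribosomal protein genes 37.7%, with a median of 6.83 RPM.

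**Figure D1:**
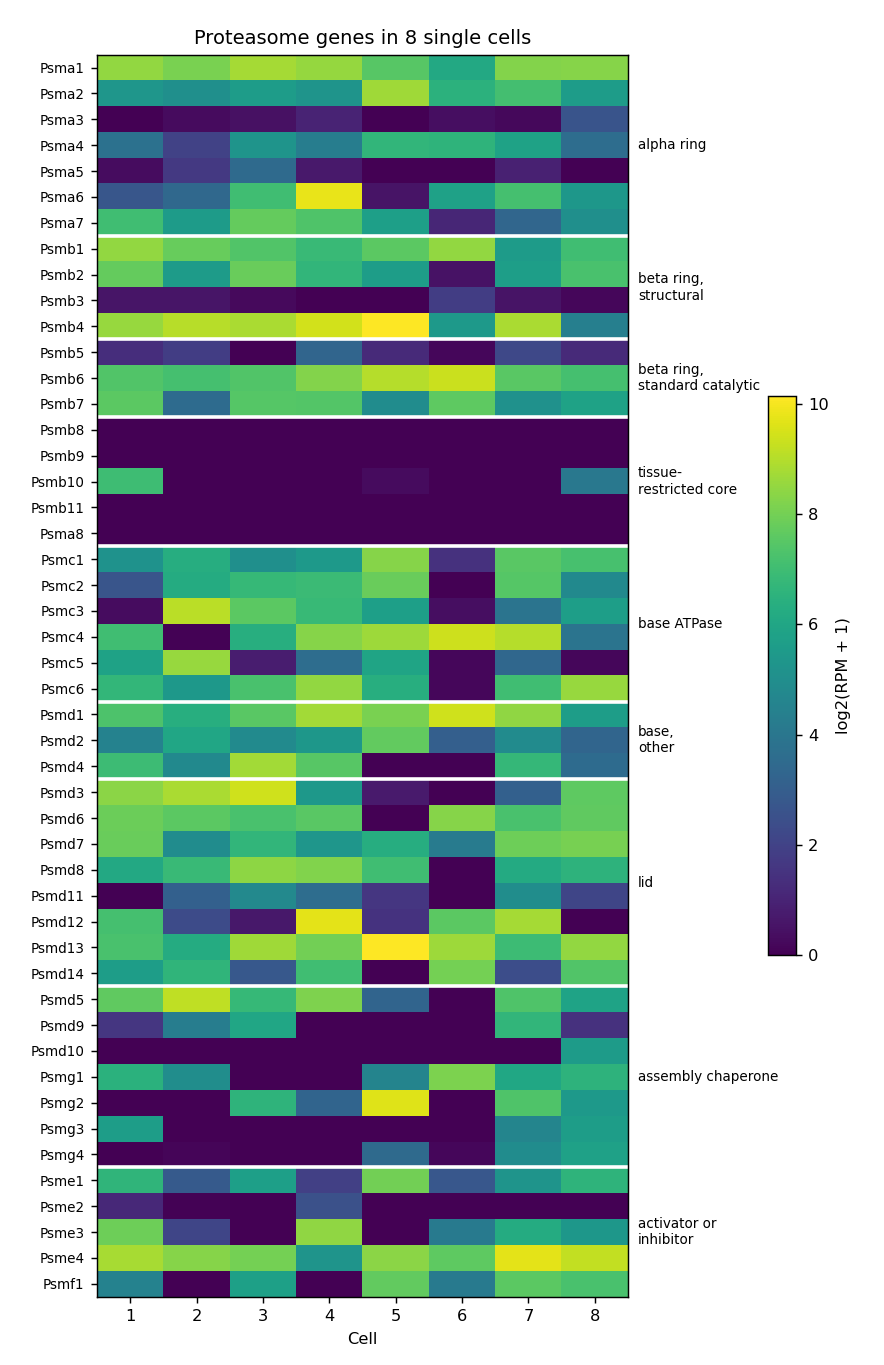
Level of each of the 48 proteasome genes (rows, grouped by role) in each of the 8 cells (columns), as log2(RPM + 1) on the colour scale. Rows of the tissue-restricted core are dark except for Psmb10 in cells 1 and 8, and the column of cell 6 has the most dark fields, with 24 genes under 1 RPM.

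Each standard cutting subunit was at or above its immune form in every cell, by a margin that was wide for Psmb6, varied between cells for Psmb7 and was small for Psmb5. Psmb6 (chromosome 11, 70525367 to 70527858, plus strand of mm10), which cuts after acidic residues, was lowest at 140 RPM in cell 8, had a median of 176 RPM and was highest at 637 RPM in cell 6. Psmb9, its immune form (chromosome 17, 34181987 to 34187764, minus strand), had no read in any cell. The groups of values did not overlap, and Psmb6 was higher in 8 of 8 cells. Per kilobase of transcript, the reads of Psmb6 exceeded a floor of 3 reads for Psmb9 by at least 373-fold in each cell, with a median of 761. That floor covers counting error only. A transcript lost before amplification also gives no read, so the ratio does not bound expression in a cell.

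Psmb7 (chromosome 2, 38588036 to 38644087, minus strand), which cuts after basic residues, ran from 10.8 RPM in cell 2 over a median of 114 to 198 RPM in cell 6. That median was 56.6 to 172 RPM with any 1 cell left out. Its immune form Psmb10 (chromosome 8, 105935735 to 105938444, minus strand) was the only immune subunit with reads, at 125 RPM in cell 1, 15.8 in cell 8 and 0.223 in cell 5, with none in the other 5 cells. Psmb10 minus Psmb7 on the log2(RPM + 1) scale had a median of -4.88 (SD 2.69) and was negative in 8 of 8 cells. Cell 1 had the smallest difference, -0.60, with 125 RPM of Psmb10 beside 189 RPM of Psmb7.

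Psmb5 (chromosome 14, 54614119 to 54618022, minus strand), which cuts after hydrophobic residues, was low throughout. It had no read in cell 3, a median of 1.43 RPM and its highest level, 8.90 RPM, in cell 4. Its immune form Psmb8 (chromosome 17, 34197721 to 34201454, plus strand) had no read in any cell, so Psmb5 was higher in 7 cells and equal in cell 3. In the 6 cells with more than 3 reads of Psmb5 it exceeded the floor of Psmb8 by at least 3.62-fold per kilobase. Of the Psmb5 transcript 88.4% has a near-identical copy in another gene, which bears on its level as described below.

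**Figure D2:**
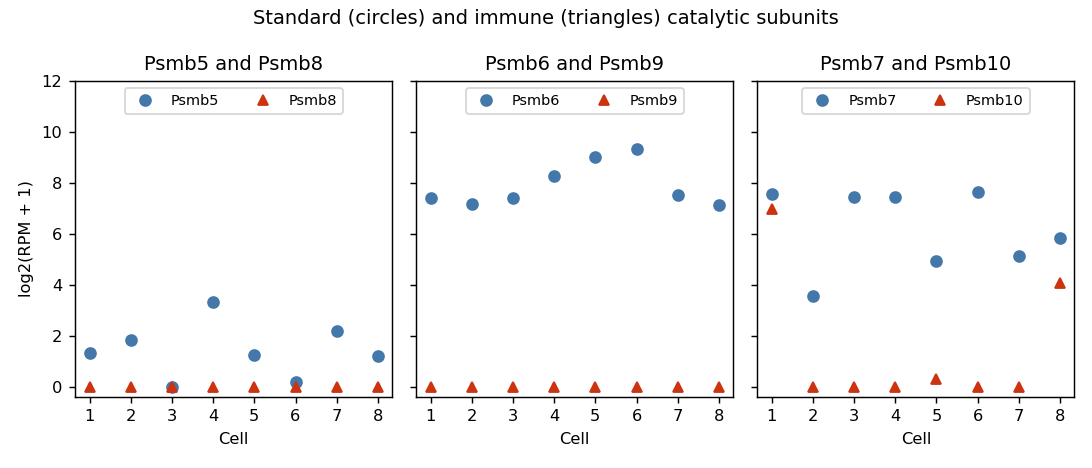
Levels of the standard (circles) and immune (triangles) form of each cutting subunit in the 8 cells, as log2(RPM + 1). Psmb6 lies above Psmb9 in every cell, while Psmb10 comes near Psmb7 in cell 1.

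Psmb11, the form of the same subunit found in the thymus, and Psma8, an alpha subunit of the testis, also had no read in any cell. The alpha subunit that Psma8 replaces, Psma7, was detected in 8 of 8 cells at 1.13 RPM (cell 6) to 215 RPM (cell 3), and Psma8 minus Psma7 had a median of -5.63 log2 units (SD 2.24). A count of 0 reads allows up to 0.0993 RPM in cell 2 and 0.758 RPM in cell 1, the extremes of depth. Over the 69360751 reads of all cells together it allows up to 0.0433 RPM. These limits cover counting error only. Of 13 genes of antigen presentation and the interferon response, in which the immune subunits act, 1, H2-D1, was detected in at least 6 cells, against 14.2% of all symbols. Of the others, 9 were detected in 1 to 5 cells, and Tap1, Tap2 and Nlrc5 had no read, against 55.2% of all symbols detected in no cell. Irf1, a transcription factor of the interferon response, was high in single cells, at 478 RPM in cell 6 and 151 RPM in cell 2.

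The promoters of Psmb5, Psmb6 and their immune forms Psmb8 and Psmb9 are shown because both immune forms had no read in any cell, with Psme4 and Psmd12 as examples of the most frequent motif. Each stretch holds the 130 bases before the start of the gene in RefSeq (GRCm38.p6), 5′ to 3′ on the strand of the gene, and capitals mark any match to the 3 motifs searched. The gene positions in this text are from GENCODE, whose starts can differ. By those positions the stretches of Psmb8 and Psmb9 lie wholly inside the gene, and those of Psmb5, Psme4 and Psmd12 partly.
Psmb5, chr14:54617996-54618125, minus strand: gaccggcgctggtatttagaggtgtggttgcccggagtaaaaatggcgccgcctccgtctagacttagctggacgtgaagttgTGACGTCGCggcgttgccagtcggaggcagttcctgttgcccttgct
Psmb8, chr17:34198065-34198194, plus strand: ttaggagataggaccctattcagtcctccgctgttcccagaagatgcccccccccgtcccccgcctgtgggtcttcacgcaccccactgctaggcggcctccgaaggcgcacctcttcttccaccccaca
Psmb6, chr11:70525227-70525356, plus strand: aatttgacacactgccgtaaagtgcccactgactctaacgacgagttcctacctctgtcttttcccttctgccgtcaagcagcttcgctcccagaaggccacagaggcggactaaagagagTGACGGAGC
Psmb9, chr17:34187331-34187460, minus strand: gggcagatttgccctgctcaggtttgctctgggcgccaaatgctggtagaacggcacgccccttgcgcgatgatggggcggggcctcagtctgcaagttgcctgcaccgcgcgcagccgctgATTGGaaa
Psme4, chr11:30771645-30771774, plus strand: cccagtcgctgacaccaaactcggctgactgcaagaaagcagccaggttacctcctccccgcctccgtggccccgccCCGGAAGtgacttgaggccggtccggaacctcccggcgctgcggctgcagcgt
Psmd12, chr11:107479398-107479527, plus strand: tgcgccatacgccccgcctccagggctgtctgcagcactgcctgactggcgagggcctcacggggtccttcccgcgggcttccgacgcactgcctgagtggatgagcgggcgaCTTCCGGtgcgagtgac

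The motifs were the antioxidant response element TGACNNNGC, through which Nfe2l1 and Nfe2l2 act on proteasome genes, the CCAAT box and the ETS core CCGGAAG, each searched on both strands of the 300 bases from 250 before to 50 after the start. RefSeq gave 43 such promoters for 40 of the 48 genes, all but Psma8, Psmb1, Psmb2, Psmb7, Psmc3, Psmd3, Psmd7 and Psmg2. The element TGACNNNGC was found in 6 of them, or 14.0%, against 13.1% of 20291 promoters of the table, a share near the background. In Psmb5 it began 47 bases and in Psmb6 9 bases before the RefSeq start. The stretches of Psmb8 and Psmb9, which lie inside the genes by GENCODE, held none. CCAAT was found in 32.6% of the promoters of these genes and 38.1% of all. CCGGAAG was found in 15, or 34.9%, against 11.5% of all and 18.9% of the promoters of genes detected in at least 6 cells. A match describes the letters and is no evidence of binding.

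Among the other core genes, the highest level was that of Psmb4, a structural beta subunit (chromosome 3, 94884093 to 94886961, minus strand). It ran from 19.9 RPM in cell 8 and 42.4 RPM in cell 6 over a median of 458 to 1124 RPM in cell 5, so 2 cells lay far below the rest. Psmb1 was detected in 8 of 8 cells, at 46.2 RPM (cell 7) to 361 RPM (cell 1) with a median of 177. Psmb2 had a median of 75.5 RPM and lay at 0.424 RPM in cell 6 against 46.3 RPM or more elsewhere. Of the alpha ring, Psma1 (chromosome 7, 114264606 to 114276118, minus strand) was highest and even between cells. It ran from 68.6 RPM in cell 6 over a median of 311 to 435 RPM in cell 3, an SD of 0.85 log2 units. Psma2 had a median of 47.5 RPM, with 7 cells at 32.5 to 135 RPM and cell 5 at 408 RPM. Psma6 spanned the widest range of the ring, from 0.447 RPM in cell 5 to 883 RPM in cell 4, its highest by far.

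Several subunits that no proteasome can lack were at or near 0. Psma3, Psma5 and Psmb3 had medians of 0.257, 0.430 and 0.325 RPM and were detected in 2, 2 and 1 cells. Their reads over all 8 cells came to 53, 132 and 40, against 31676 for Psmb4. These genes share a feature of sequence. Of the longest coding transcript of Psma3 34.4%, of Psma5 76.5% and of Psmb3 80.7% has a copy of at least 95% identity in another gene. For Psma5 and Psmb3 all genes with such a copy are annotated as pseudogenes. A read from such a stretch cannot be placed by its sequence alone where the copy is exact, but can be where it crosses a difference. How much of these stretches is exactly alike was not measured. How reads with several matches were counted is not given in the sources used here.

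Across the 43 genes outside the tissue-restricted core, 9 have such copies over at least 20% of the transcript, a limit chosen with these values known. They are Psma3, Psma4, Psma5, Psmb3, Psmb5, Psmc1, Psmd2, Psmd11 and Psme2, and the median of their median levels was 1.43 RPM. The other 34 genes had a median of 74.5 RPM, and both groups began at 0. Among the 31 genes of subunits that every capped proteasome needs, the 8 past that limit had a median of 1.76 RPM per kilobase and the 23 under it 54.9 RPM per kilobase. The 2 ranges overlapped, because Psmc1 reached a median of 60.7 RPM with copies over 82.0%, and Psmd2 28.5 RPM with 98.2%. Under the limit, the lowest median of a needed subunit was 10.4 RPM, for Psmc5. Levels of the 9 genes are uncertain for these copies, whose part in the low values was not tested. Of 16 genes that hold the longer copies, 2 are symbols of the table, Psme2b and A730017L22Rik. Psme2b, which matches 82.5% of Psme2, reached 62.3 RPM in cell 4 and 46.0 RPM in cell 1, the 2 cells that detected Psme2, at 4.65 and 1.26 RPM, and 20.8 RPM in cell 5, which had no read of Psme2.

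**Figure D3:**
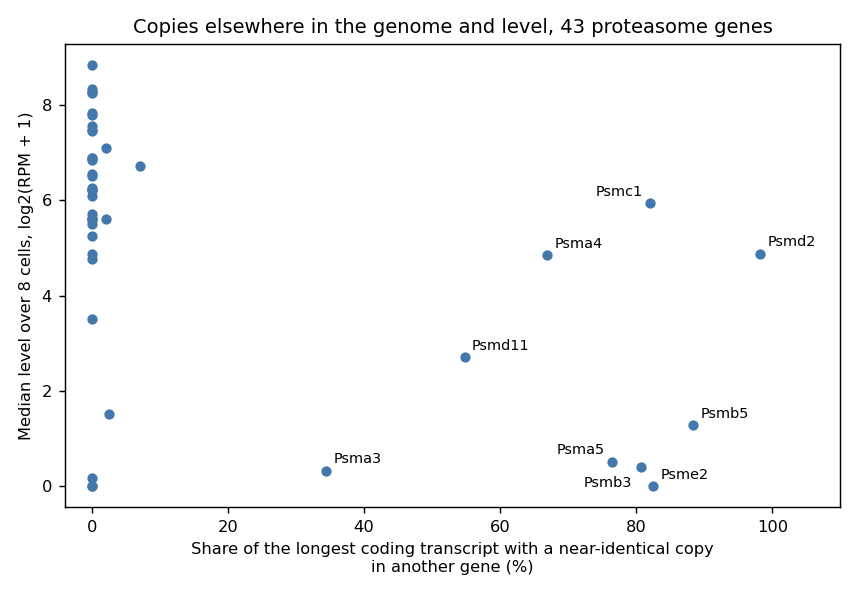
Share of each longest coding transcript with a near-identical copy in another gene (x axis, percent) against the median level over 8 cells as log2(RPM + 1) (y axis), for the 43 proteasome genes outside the tissue-restricted core. The 9 named genes at or above 20% lie between 0 and 60.7 RPM, and the 34 genes under 20% between 0 and 458 RPM.

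The 6 ATPases, which unfold the substrate and open the core, varied more between cells than the rings did, by the median over genes. Their median SD was 2.90 log2 units, against 1.23 for the alpha ring and 1.49 for the structural beta genes. The ring medians include Psma3, Psma5 and Psmb3, near 0 in most cells, where the pseudocount narrows the SD (0.87, 1.21 and 0.59). Psma6, Psma7 and Psmb2, at 2.92, 2.24 and 2.35, lay within the range of the ATPases, 2.12 to 3.21. The other alpha and structural beta genes lay below it. Of the ATPases, Psmc4 (chromosome 7, 28041707 to 28050101, minus strand) had the highest level, from 0.0331 RPM in cell 2 over a median of 220 to 655 RPM in cell 6. Its median was 130 to 309 RPM with any 1 cell left out. Psmc3 showed the opposite cells, with 542 RPM in cell 2 and 0.283 RPM in cell 6, and 0.253 RPM in cell 1. Psmc5 likewise was highest in cell 2, at 380 RPM, and under 1 RPM in cells 3, 6 and 8. Psmc6 ran from 0.141 RPM in cell 6 to 379 RPM in cell 8, and Psmc2 had no read in cell 6 and reached 226 RPM in cell 5. These are subunits of 1 ring, and cell 6 was lowest in 4 of the 6. For Psmc5, 1 of the 4, cells 6 and 8 had 1 read each (0.141 and 0.145 RPM), so their order rests on depth alone. All 6 ATPases were detected in cells 4, 5 and 7, 5 of them in cells 1, 2, 3 and 8, and 2 in cell 6.

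Of the other base genes, Psmd1, the scaffold of the base (chromosome 1, 86064387 to 86139151, plus strand), was detected in 8 of 8 cells, at 49.0 RPM (cell 8) to 669 RPM (cell 6) with a median of 228. Psmd4, a ubiquitin receptor, reached 420 RPM in cell 3 and had no read in cells 5 and 6, with a median of 67.4 RPM that was 27.2 to 108 RPM with any 1 cell left out. Another ubiquitin receptor of the cap, Adrm1, whose symbol lies outside the stem, was detected in 3 cells and had a median of 0.265 RPM.

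All 8 lid genes were detected in at least 6 cells, 4 of them still at 10 RPM. Psmd13 (chromosome 7, 140881968 to 140898643, plus strand), a structural lid subunit, was highest, from 74.5 RPM in cell 2 over a median of 303 to 1112 RPM in cell 5. Psmd14, the deubiquitinase of the lid (chromosome 2, 61711694 to 61800376, plus strand), had no read in cell 5, a median of 73.5 RPM and 256 RPM at most, in cell 6. Psmd6 was even in 7 cells, at 147 to 313 RPM, with no read in cell 5. Psmd3 reached 682 RPM in cell 3 and had no read in cell 6, and its median of 118 RPM was 41.3 to 195 RPM with any 1 cell left out. Psmd7 was detected in 8 of 8 cells, at 17.7 to 264 RPM, and Psmd8 in 7, with no read in cell 6. Psmd12 was the least even gene of the 48, with an SD of 3.98 log2 units. It ran from no read in cell 8 to 844 RPM in cell 4, and its median of 73.1 RPM was 3.94 to 142 RPM with any 1 cell left out.

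The assembly chaperones ranged from 1 to 7 cells detected. Of 7, Psmd5 and Psmg1 were detected in at least 6 cells, at medians of 137 and 47.3 RPM (30.5 to 64.0 RPM for Psmg1 with any 1 cell left out). Psmd5 acts on the base and Psmg1 on the alpha ring. Psmg2, the partner of Psmg1, was detected in 5 cells and reached 796 RPM in cell 5, with no read in cells 1, 2 and 6. Psmg1 and Psmg2 were both detected in 3 cells. Psmg3 and Psmg4, the other pair that acts on the alpha ring, were each detected in 3 cells, and Psmd10, known as gankyrin, only in cell 8, at 46.9 RPM.

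Psme4, the activator of the nucleus that opens the core without ubiquitin (chromosome 11, 30771726 to 30880361, plus strand), had the second highest median RPM of the 48 genes. It ran from 37.0 RPM in cell 4 over a median of 323 to 831 RPM in cell 7, and the 7 cells other than cell 4 lay at 195 RPM or more. Its transcript is also the longest, at 6.491 kilobases, and per kilobase it ranked 16 at 49.8 RPM per kilobase. Psme1 and Psme2 form a ring that interferon induces. Psme1 was detected in 8 of 8 cells at 2.83 to 250 RPM, and Psme2, uncertain for its copies, in 2. Psme3, which forms a ring of its own in the nucleus, had no read in cells 3 and 5 and 346 RPM in cell 4. It exceeded Psme1 in 4 cells and lay below it in 4, a median difference of 0.13 log2 units (SD 4.49). That difference was -0.89 per kilobase, and it became -0.72 when cell 1, 4, 6 or 7 was omitted and 0.99 when cell 2, 3, 5 or 8 was. Psmf1, the inhibitor, was detected in 6 cells, up to 208 RPM in cell 5.

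Per kilobase of the longest coding transcript, the order of the subunits that every capped proteasome needs was led by Psmb4 (387 RPM per kilobase), Psma1 (259), Psmb6 (220), Psmc4 and Psmd13 (both 152) and Psmd6 (136). No neighbours in the order differed by more than the SD of their difference over the cells. Within a cell, the upper quartile of the 23 needed genes under the copy limit was between 2.94 (cell 4) and 10.2 (cell 5) times the lower quartile, except in cell 6, where it was 1343 times. With the summed length of all exons in place of the transcript, 8 of the 10 highest of the 48 genes were the same. Exons of a few genes overlap those of a neighbour, such as Psmb7 with 11.8% and Psmd13 with 10.1%, so some of their reads may stem from that gene.

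Levels of different proteasome genes showed little shared variation from cell to cell. Over the 528 pairs of the 33 genes detected in at least 6 cells, the median Spearman correlation over the 8 cells was -0.018, against 0.024 for all pairs of the 3422 such genes. Each correlation rests on 8 points, which share 1 protocol and differ in depth and in the number of genes detected. The spread of single genes was wide, with a median below that of all genes detected in as many cells and above that of complex I. The 33 genes had a median SD of 2.24 log2 units, against 2.77 for all genes detected in at least 6 cells, 1.65 for those of complex I and 2.81 for those of the mitochondrial ribosome. Genes with near-identical copies lowered that median. The 23 needed genes under the copy limit, 22 of them detected in at least 6 cells, had a median SD of 2.64. For the 8 past the limit it was 1.34. Without cell 6 the value for the 33 was 1.57, against 2.66 for all such genes.

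Summed over the 48 genes, the level ran from 4149 RPM in cell 8 over a median of 5282 to 7211 RPM in cell 5, an SD of 1132, which is 0.415% to 0.721% of all reads. The exact 95% Poisson interval was 4101 to 4197 RPM in cell 8 and 7133 to 7290 RPM in cell 5, for counting error only. The hybrid cell 2 stood at 4528 RPM and detected 34 of the genes, inside the range of the others in both. Cell 4, which stood apart in Prph, had 6949 RPM and 35 genes. The gene with the largest share differed from cell to cell, with Psme4 first in cells 1, 7 and 8, Psmd5 in cell 2, Psmd3 in cell 3, Psma6 in cell 4, Psmb4 in cell 5 and Psmd1 in cell 6. None took more than 15.6% of the sum.

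**Figure D4:**
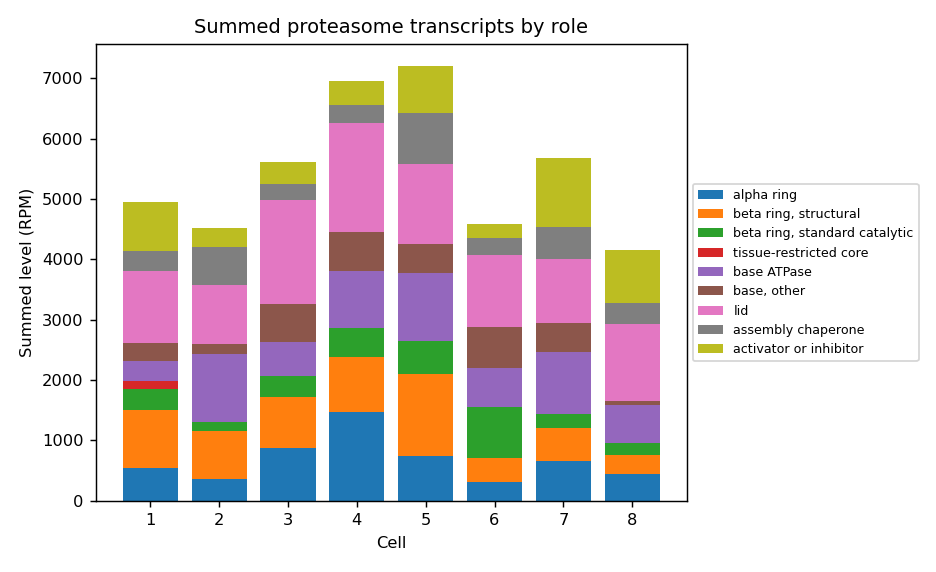
Summed level of the 48 proteasome genes in each cell (bars, RPM), divided by role. The bars end between 4149 RPM (cell 8) and 7211 RPM (cell 5), and their makeup differs, for example in the catalytic genes of cell 6.

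Cell 6 lacked more of the proteasome genes than any other cell. It detected 24 of the 48, against 30 to 39 elsewhere, and 19 of the 31 needed subunits, against 23 to 29. It also detected few genes of any kind, 4242, although cell 5 detected fewer still, 4040, and 30 proteasome genes. The number of proteasome genes followed the number of all genes detected, with a Spearman correlation of 0.83 over the 8 cells, and did not follow depth (-0.07). Of 36 proteasome genes detected in at least 4 cells, 7 lay below the range of the other cells by over 2 log2 units in cell 6, or 19.4%, against 3.69% of 5936 genes. They were Psma7, Psmb2, Psmc1, Psmc2, Psmc6, Psmd5 and Psmd8. In cell 5 there were 3, Psma6, Psmd6 and Psmd14, or 8.33%, against 4.46% of all genes, in cells 2 and 4 1 each, against 1.62% and 3.87%, and in the other 4 cells none. A gene can lie so far below the other cells only if all 7 of them detected it. For cell 6 that held for 20 proteasome genes and 1384 of all genes, and for cell 5 for 18 and 1456. These shares therefore depend on how widely genes were detected, and do not by themselves set proteasome genes apart. Above the range of the other cells by the same margin lay Psmc5 in cell 2, Psma6 in cell 4 and Psmg2 in cell 5, against 1.25%, 1.55% and 1.84% of all genes. No proteasome gene did so in cells 1, 3, 6, 7 and 8, against 0.910%, 1.28%, 1.36%, 0.960% and 0.910% of all genes. Below the range, the shares of all genes in cells 1, 3, 7 and 8 were 0.354%, 1.92%, 1.16% and 0.590%. Of the genes detected in all 7 other cells, cell 6 had 5 of 20 proteasome genes under 1 RPM, or 25%, against 15.2% of 1384 genes, and cell 5 had 3 of 18, or 16.7%, against 19.4%. Cell 2 had 1 of 16, Psmc4, or 6.25%, against 8.29%. Cells 1, 3, 4, 7 and 8 had none of 15, against 1.84%, 8.72%, 16.3%, 7.05% and 2.98% of all genes. Other proteasome genes were highest of all cells in cell 6, among them Psmb6, Psmb7, Psmc4, Psmd1, Psmd14 and Psmg1, so that its summed level, 4587 RPM, lay inside the range of the others.

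**Figure D5:**
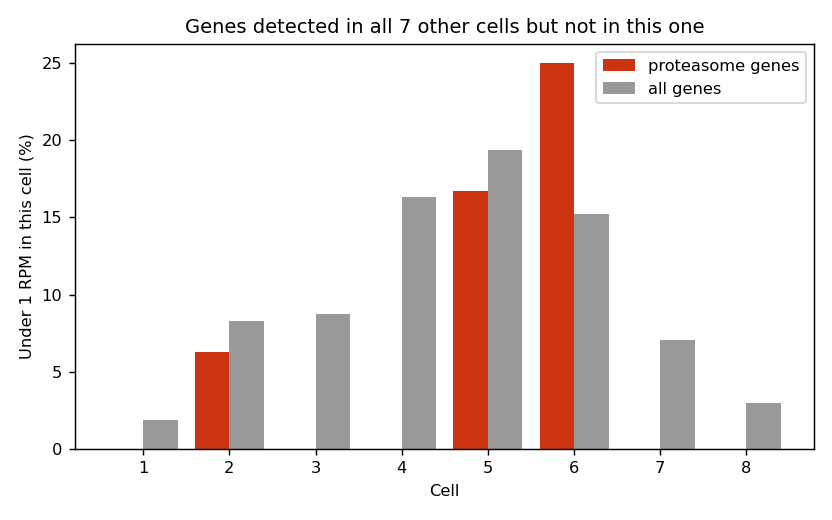
For each cell, the percentage of genes detected in all 7 other cells that were under 1 RPM in that cell, for proteasome genes (red) and all genes (grey). Proteasome genes lie above all genes in cell 6 (25% against 15.2%) and below or at 0 in the other cells.

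Of 26 partner genes of the proteasome, 25 were in the table, and 14 of them were detected in at least 6 cells, against 14.2% of all symbols. Nfe2l1, the transcription factor that raises proteasome genes when the proteasome is blocked, was detected in 8 of 8 cells, from 4.02 RPM in cell 5 over a median of 253 to 646 RPM in cell 1. Its relative Nfe2l2 was detected in 2 cells, 5 and 7, at 121 and 34.1 RPM. Ddi2, the protease that activates the Nfe2l1 protein, stayed under 1 RPM in every cell, and Ngly1, which removes its sugars, was detected in 5 cells. Cell 5 had the lowest Nfe2l1 level and the highest summed proteasome level, and whether the 2 are related over the cells was not tested.

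Ubb, which encodes ubiquitin, was detected in 8 of 8 cells, at 3.18 to 29.8 RPM. Uba1, the main ubiquitin-activating enzyme, ran from 11.6 RPM in cell 8 over a median of 297 to 951 RPM in cell 5. Of the genes that bring substrates to the proteasome, Ubqln1 had a median of 331 RPM and Vcp, the segregase, 30.7 RPM, both in 8 of 8 cells. Of the deubiquitinases bound to the cap, Usp14 was detected in 6 cells, up to 824 RPM in cell 4, and Uchl5 in 5. The lid subunit Shfm1 was detected in 8 of 8 cells, and the core maturation factor Pomp in 7, at a median of 55.5 RPM.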

How the data were processed

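Cells were lysed singly, their cDNA was amplified by PCR, and libraries were made with Illumina DNA and Nextera kits, per the labels' protocols. Reads were aligned with Bowtie to mm10, per the submitters' processing notes. The counter, its annotation, its use of strand and its treatment of reads with several matches were not given in the sources used here. The authors deposited a read count and an RPM value for each symbol. The deposited RPM equalled the count per 1000000 counts of the cell. It corrects for depth only.

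The members and gene lists were chosen with earlier results of these data known. Each of the 48 genes and every gene of the lists could be named. Others were not, except Psme2b and A730017L22Rik, which were named for their copies with values already seen. Levels are RPM or log2(RPM + 1), a pseudocount of 1, which understates differences near 0. Positions, transcript lengths and sequences for the copy search came from GENCODE M21 (GRCm38, the same build). Copies were sought with blastn 2.17.0 at 95% identity over at least 50 bases. The steps used Python 3.11.15, numpy 2.4.6 and pandas 2.3.3, and were tested on simulated data. Alternatives were other detection limits, pseudocounts, lengths and scaling, and leaving out each cell in turn. As the cells count as 1 sample, no p-value was computed. Dixon's limit over the cells served only to pick out single values. Values of some listed genes are not reported here.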

Additional observations from a re-analysis of the deposited data

Results flagged for a closer look

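A cell was singled out where its gap to the nearest other cell on the log2(RPM + 1) scale was a large part of the range of the 8 cells (95% limit of Dixon's test). Of 44 genes with a detected level, 10 had such a cell. The limit is set so that chance gives this in about 1 of 20 cases for normal values of independent samples. Neither condition holds here, and a gene with reads in few cells passes it readily (Psmd10 had no read in 7 cells), so nothing is read from the count. Cell 6 was low in Psmb2 (0.424 RPM), Psmc1 (1.70 RPM), Psmc6 (0.141 RPM) and Psmd8 (0 RPM) and high in Psmb3 (2.54 RPM). Cell 5 was low in Psmd6 (0 RPM). Cell 4 was low in Psme4 (37.0 RPM) and high in Psme2 (4.65 RPM). Cell 8 was high in Psmd10 (46.9 RPM) and Psma3 (5.22 RPM). Psma3, Psmb3, Psmc1 and Psme2 are among the genes with near-identical copies, and the high values of Psma3, Psmb3 and Psme2 rest on 36, 18 and 23 reads. Neither the summed level, the number of genes detected nor any of the 6 differences between related subunits had such a cell.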

How the results depend on the processing

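With 1 cell left out, the number of proteasome genes detected in at least 6 cells (5 of 7) was 33 to 36, the number detected in all cells 15 to 20, the median log2 level 5.17 to 5.68, the summed level 4950 to 5613 RPM, the median SD 1.56 to 2.22 (1.56 without cell 6, against 2.16 with all cells) and the median correlation -0.018 to 0.018 (0.018 without cell 5 or 6). A pseudocount of 0.1 moved the differences to -3.93 for Psmb8 minus Psmb5, -10.78 for Psmb9 minus Psmb6, -7.59 for Psmb10 minus Psmb7 and -8.92 for Psma8 minus Psma7, since a gene without reads is set by the pseudocount. Psme3 minus Psme1 changed sign, to -0.89 per kilobase and to -0.72 to 0.99 with 1 cell left out. The other settings for the results named so far, among them scaling by the median ratio, kept counts within 1.5 times and values within the spread between cells. With a margin of 1 log2 unit in place of 2, the genes above the range of the other cells rose from 1 to 5 in cell 5, from 1 to 2 in cells 2 and 4 and from 0 to 1 in cells 3 and 6, and those below it from 1 to 3 in cell 2 and from 0 to 1 in cells 7 and 8. At a limit of 10 RPM, 4 of the 8 lid genes and 2 of the 4 activator or inhibitor genes remained detected in at least 6 cells. Of 36 genes with a median of at least 1 RPM, 10 had a median that moved by over 1.5 times with 1 cell left out. No paired analysis was possible because there is 1 group. PCR copies are not independent molecules, so a level of 0 can mean a transcript lost before amplification.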
